A study of Arabidopsis thaliana with 4 samples.

Results

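The comparison described here sets whole siliques of Arabidopsis thaliana at 16 to 20 days post-anthesis (stage 4) against siliques at 11 to 15 days (stage 3). Siliques are the pods of this plant, and the libraries hold RNA of the pod wall, the seed coat, the endosperm and the embryo together. All plants were wild type of the accession Col-0, grown at long days with no treatment named, and the series has 4 libraries, 1 for each age class from days 0 to 5 onwards. Each side of the comparison is therefore 1 library, with no replicate check, no error and no p-value, and the age of the fruits and the library they came from cannot be told apart. The ages are those of the developmental stage labels. The growth protocol in the same labels gives other limits, naming stage 2 for 2 age classes and giving stage 4 the days 6 to 10, so the ages rest on the stage labels and the source names. How many plants or pods went into a library is not stated in the labels.

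The deposited values are FPKM, in which the fragments of a locus are divided by transcript length and library size. Of 29971 loci, 10714 entered the comparison because they had an FPKM above 0 in both libraries and at least 10 in the higher one. The difference is that of log2(FPKM + 1), stage 4 minus stage 3. A locus is called higher or lower when this difference reached 1 in either direction, which is a description of size and not a test. By this rule 574 loci were higher in stage 4, 5.36% of those compared, and 666 were lower, 6.22%. At 4-fold these counts were 151 (1.41%) and 185 (1.73%), and at 8-fold 49 (0.457%) and 39 (0.364%). By the same rule the step from stage 2 to stage 3, which uses the same stage 3 library, had 15.5% of 11162 loci higher and 10.3% lower. The middle of the distribution hardly moved, with a median difference of -0.04, and 75.8% of the loci lay within 1.5-fold. Just inside the FPKM limit was ERO2, at 9.56 and 10.0 FPKM, and just outside was PIP2;8, at 10.0 and 3.74 FPKM.

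Steps in the lowest FPKM values correspond to about 68.0 M (mega) fragments in stage 3 and 57.2 M in stage 4, so an FPKM of 10 on a transcript of 1500 bases rests on about 898 and 755 fragments. Loci at FPKM 1 or more numbered 16366 and 16356. The very short locus AT2G01021 held 45.0% of the FPKM sum in stage 3 and 6.65% in stage 4. Setting the sums of the 2 libraries equal therefore multiplied stage 4 by 1.78 and moved the median difference of all loci to 0.79. The other 4 rescalings left it between -0.04 and 0.03. Each list median below that lay over 0.1 from the median of all loci stayed on the same side of it under all 5 rescalings. Fruit genes were present in both libraries, such as the valve regulator FUL at 37.0 and 38.7 FPKM and the valve margin regulator SHP1 at 47.2 and 58.0 FPKM. All 5 pollen genes stood at 4.21 FPKM or less.

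**Figure D1:**
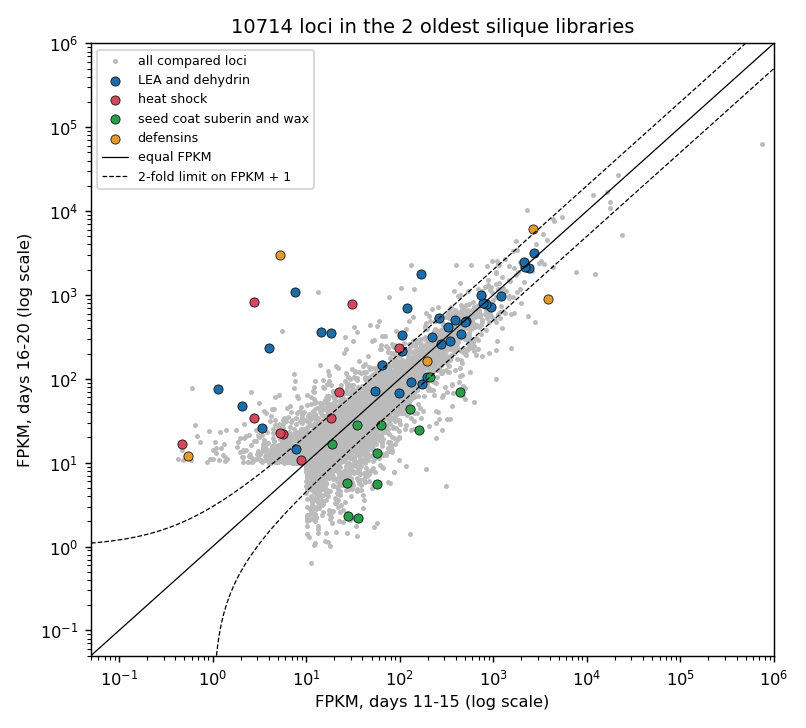
FPKM of the 10714 compared loci in the library of days 11 to 15 (horizontal, log scale) and of days 16 to 20 (vertical, log scale), with members of 4 gene lists coloured. The solid line is equality and the dashed lines the 2-fold limit on FPKM + 1. The points farthest above the line include HSP17.6A, EM6 and PDF1.1, the last at 5.25 and 3027 FPKM, and all 12 suberin and wax points lie below it.

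In late maturation the embryo has filled its stores and acquires desiccation tolerance. Late embryogenesis abundant (LEA) proteins and small heat shock proteins are hydrophilic or chaperone proteins that accumulate as the seed dries, largely under abscisic acid and the regulator ABI3. The seed coat, which is maternal tissue, has by then deposited mucilage, tannins and a suberin barrier, and its cells die. Endosperm is reduced to a thin cell layer around the embryo.

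The LEA and dehydrin list separated into a late set and a set already high in stage 3. Of its 36 compared loci 13 were higher in stage 4 and 1 was lower, and the median difference was 0.35, with 5.36% of all compared loci called higher. AT3G22490, a seed maturation protein gene, stood at 0.0420, 0.0379, 1.14 and 76.2 FPKM in stages 1 to 4. Its neighbour ECP31 on the same chromosome, of the same protein family, stood at 0.0126, 0.228, 18.5 and 348 FPKM. M10, a LEA gene, was listed at 0 in stage 1 and stood at 0.256, 14.6 and 358 FPKM in the next 3 libraries. For each of these loci nearly all signal of the series was in stage 4. The dehydrin gene AT4G39130 followed the same course at a lower level, with 0.146, 0.0756, 2.05 and 47.6 FPKM. LEA4-2, a group 4 LEA gene, began earlier, with 4.23, 12.9, 121 and 706 FPKM.

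The largest differences of the list belonged to EM6 (GEA6 in RefSeq, 6.97), M17 (5.55), AT3G22490 (5.17), M10 (4.52), ECP31 (4.16), AT4G39130 (3.99) and EM1 (3.39). EM1 and EM6 are the Em proteins of the dry seed. Other LEA genes were as abundant in stage 3 as in stage 4. RAB18, an abscisic acid-responsive dehydrin, stood at 2731 and 3199 FPKM, AT3G15670 at 2134 and 2451 FPKM, AT2G21490, a dehydrin, at 2432 and 2106 FPKM, and AT3G02480 at 2199 and 2136 FPKM. These 4 loci outranked each late LEA gene in stage 4. The tandem dehydrins XERO1 and XERO2 lie next to each other on chromosome 3 and went opposite ways, XERO1 from 264 to 534 FPKM (1.01) and XERO2 from 174 to 86.1 FPKM (-1.01). Both differences lie at the limit, and XERO2 was not called with a pseudocount of 5 or under 4 of the 5 rescalings. The vegetative cold-responsive dehydrins COR47, at 198 and 106 FPKM, and ERD10, at 133 and 92.9 FPKM, were not called.

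The promoters of 5 late genes are shown as examples in which short elements of abscisic acid and heat shock regulation can be read. They were picked for their matches after the sequences were seen, and other late genes lack them. M17 and HSP17.6A, with differences of 5.55 and 7.80, held 0 matches to each motif, and ECP31 held 1 RY element but 0 ACGTG. Each line holds the 250 bases before the RefSeq gene start (build TAIR10.1), read 5′ to 3′ on the strand of the gene. Capitals mark ACGTG, the core of the abscisic acid response element, CATGCA, the RY element bound by B3 regulators such as ABI3, and GAANNTTC, a unit of the heat shock element, each searched on both strands.
EM1, chr3:19214472-19214721 (+ strand): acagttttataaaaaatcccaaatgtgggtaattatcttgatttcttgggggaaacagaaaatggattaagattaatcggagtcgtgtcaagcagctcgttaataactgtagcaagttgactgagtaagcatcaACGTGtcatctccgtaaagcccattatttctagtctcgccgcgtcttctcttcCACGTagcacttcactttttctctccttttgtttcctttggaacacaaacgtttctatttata
LEA4-2, chr2:14863413-14863662 (- strand): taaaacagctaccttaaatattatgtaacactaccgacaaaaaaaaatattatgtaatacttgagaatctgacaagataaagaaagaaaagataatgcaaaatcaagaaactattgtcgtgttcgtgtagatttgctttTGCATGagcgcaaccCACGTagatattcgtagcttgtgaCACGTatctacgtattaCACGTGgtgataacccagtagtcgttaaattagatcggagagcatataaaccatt
AT4G39130, chr4:18228855-18229104 (- strand): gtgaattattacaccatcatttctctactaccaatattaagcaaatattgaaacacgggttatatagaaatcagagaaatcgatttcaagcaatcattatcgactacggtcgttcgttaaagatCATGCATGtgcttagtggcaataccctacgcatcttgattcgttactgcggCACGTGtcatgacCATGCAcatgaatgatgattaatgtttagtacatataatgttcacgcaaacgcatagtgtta
HSP17.4, chr3:16984868-16985117 (- strand): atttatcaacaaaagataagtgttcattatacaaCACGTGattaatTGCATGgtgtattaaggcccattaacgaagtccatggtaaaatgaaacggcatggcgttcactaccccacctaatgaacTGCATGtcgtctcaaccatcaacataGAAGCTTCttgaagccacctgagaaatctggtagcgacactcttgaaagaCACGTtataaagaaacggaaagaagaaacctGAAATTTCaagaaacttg
PDF1.1, chr1:28472107-28472356 (+ strand): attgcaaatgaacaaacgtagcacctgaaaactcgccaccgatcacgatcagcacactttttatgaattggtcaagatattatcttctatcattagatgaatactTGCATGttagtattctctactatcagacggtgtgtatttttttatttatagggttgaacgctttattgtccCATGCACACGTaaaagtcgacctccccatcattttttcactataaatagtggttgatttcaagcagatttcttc
EM1 held 2 ACGTG matches and no RY element, LEA4-2 held 4 and 1, and AT4G39130 held 2 and 3, of which 2 RY matches overlap. In a CACGTG, which reads the same on both strands, 2 of these ACGTG matches overlap. PDF1.1 held 1 ACGTG and 2 RY elements, one of which abuts the ACGTG. HSP17.4 was the one shown with heat shock units, of which it held 2, beside 3 ACGTG and 2 RY matches. A match of so few letters is a description and not a binding site.

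Over all single protein-coding loci with a full promoter window, ACGTG occurred in 23.0% of 23141 windows, and in 25.1% of the 10084 that were compared. It occurred in 33.5% of the 537 windows of loci higher in stage 4 and in 25.8% of the 632 windows of lower loci. The RY element was in 7.78% of the compared windows, in 15.5% of the higher, in 19.3% of the 140 at least 4-fold higher and in 11.9% of the lower ones. On the deposited scale it was thus more frequent than among compared loci on both sides. Setting the FPKM sums equal reversed which side held it more often, with 10.0% of higher and 15.3% of lower windows. The heat shock unit was in 8.79% of compared windows, 11.5% of the higher, 17.1% of those at least 4-fold higher and 8.07% of the lower. Among LEA genes ACGTG was in 11 of the 13 windows of higher members and in 17 of the 23 of the other compared members, so that both kinds of LEA gene held it often. No test was made of these shares.

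**Figure D2:**
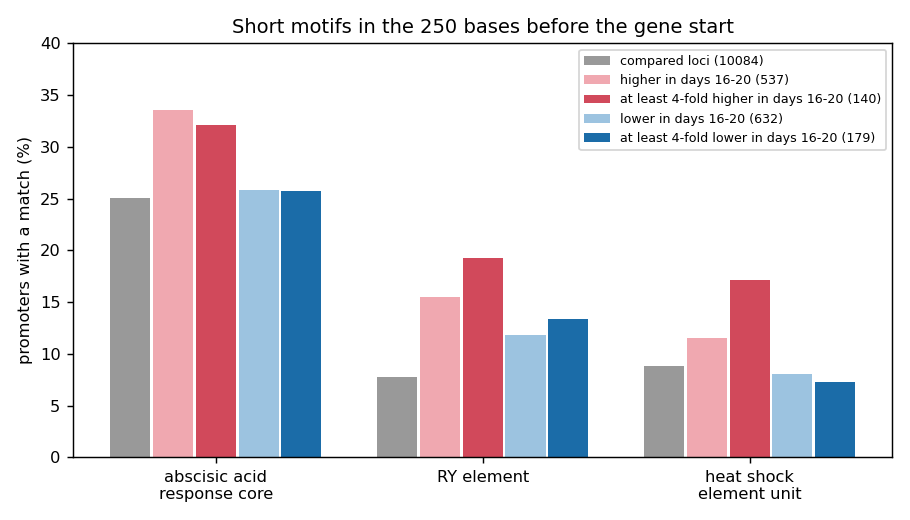
Percentage of promoters, taken as the 250 bases before the gene start, with at least 1 match to each of 3 short motifs, in groups of single protein-coding loci (number of promoters in the legend). The RY element was found in 7.78% of compared loci and in 19.3% of those at least 4-fold higher at days 16 to 20.

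Heat shock genes had the highest median difference of the lists, 1.86. Here 8 of 10 compared loci were higher and none lower, against 5.36% of all compared loci called higher. Of these, HSP17.6A, HSP17.6B, HSP17.6C, HSP26.5 and HSFA2 passed the FPKM limit only through stage 4. HSP17.6A and HSP17.4, cytosolic small heat shock proteins, reached 834 and 789 FPKM. Their relatives were called at far lower levels. HSP17.6C stood at 0.474 and 16.6 FPKM, HSP26.5 at 2.75 and 34.0 FPKM and HSP17.6B at 5.2 and 22.6 FPKM. The mitochondrial HSP23.6, at 0.133 and 5.43 FPKM, and the endoplasmic reticulum member HSP22, at 0.119 and 4.07 FPKM, were under the FPKM limit. The chloroplast member HSP21 reached 0.209 FPKM in stage 4 and HSP18.2, strongly induced by heat in leaves, 1.13 FPKM.

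Larger chaperones and their regulator were higher as well. HSP70, at 5.21, 29.3, 98.8 and 233 FPKM in stages 1 to 4, was higher in each library than in the one before. HSP90-1 stood at 22.5 and 70.1 FPKM, and HSFA2, a heat stress transcription factor, at 5.61 and 21.9 FPKM. HSP17.8 at 18.4 and 34.2 FPKM and HSP23.5 at 8.89 and 10.8 FPKM were the compared members that were not called. Of all 17 loci of the list with a value above 0 in both libraries, 11 were higher and 0 lower with no FPKM limit, against 4.55% of all such loci called higher. Chaperone families as RefSeq describes them moved less. HSP20-like chaperones had 4 of 15 compared loci higher and 0 lower, with a median of 0.50. DnaJ-domain chaperones had 2 of 27 higher and 2 lower, and TCP-1 chaperonins 0 of 10 in either direction. These families were chosen after their values were seen, and 5.36% of all compared loci were higher and 6.22% lower.

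Oil body genes had 10 of 11 differences above 0, of which 2 were called, and storage protein genes 7 of 8, of which 1 was called. The share called higher over all compared loci was 5.36%. The oleosin genes OLEO1, OLEO2 and OLEO4, whose proteins coat oil bodies, stood at 11565 and 15738, 4397 and 8019, and 4434 and 7583 FPKM, all under the limit, as was OBAP1A at 1145 and 2276 FPKM (0.99). The caleosins CLO1 (1139 and 2328 FPKM) and CLO2 (446 and 995 FPKM), calcium-binding oil body proteins, were called higher. The called storage protein locus, SESA5, stood at 2315 and 10260 FPKM, a value it shares with another gene of the locus. This locus runs from 22238358 to 22407001 on chromosome 5, much longer than the gene, and overlaps CLO2. Its value may thus not be that of SESA5 alone. SESA2 gained the most FPKM of any compared locus naming 1 protein-coding gene, from 21789 to 27188, with a log2 difference of 0.32. Nothing is read from CRC, CRB, SESA3 and CRA1, which have 0 in both libraries, nor from SESA4, which has 0 in stage 4. None of 21 genes of fatty acid and oil synthesis was called, and their median was -0.38. The chloroplast enzymes KAS1, at 216 and 109 FPKM, and CAC1, at 70.3 and 36.1 FPKM, came closest. None of 8 genes of oil breakdown was called, and ICL, isocitrate lyase of the glyoxylate cycle, stood at 453 and 565 FPKM.

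Other genes of the dry seed were called one by one, beside 5.36% of all compared loci called higher and 6.22% called lower. Of 11 antioxidant genes 3 were higher and none lower, among them PER1, a seed peroxiredoxin, from 858 to 2246 FPKM, and 2 superoxide dismutases described with the copper genes. GOLS1, galactinol synthase of raffinose sugars, stood at 27.0 and 84.5 FPKM, while GOLS5 stood at 11.0 and 2.44 FPKM and the raffinose synthase-type gene DIN10 at 407 and 174 FPKM. Of 7 compared raffinose genes 1 was higher and 2 were lower. TIP3;1, the seed aquaporin of protein storage vacuoles, stood at 1059 and 1876 FPKM, under the limit. TIP1;1, an aquaporin of the vegetative vacuole, stood at 235 and 64.1 FPKM and was lower.

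Among 17 regulators of maturation and dormancy 2 were higher and 1 was lower. The shares over all compared loci, 5.36% and 6.22%, are also the background of the hormone genes in this paragraph. RDO5, a dormancy phosphatase-like protein, was at 10.7 and 35.5 FPKM, and AGL67, a MADS-box gene, at 110 and 264 FPKM. SOM, a zinc finger regulator of light-dependent germination, was just under the limit at 75.6 and 150 FPKM. LEC1, an embryo identity regulator, was the one called lower, at 31.6 and 8.00 FPKM. Its relative LEC2 was below the FPKM limit at 6.85 and 1.84 FPKM. ABI3, FUS3 and ABI5 were not called, and FUS3 stood at 112 and 114 FPKM. Abscisic acid genes had 2 of 11 loci called higher and 1 called lower. AHG1, a phosphatase that restrains abscisic acid responses in seeds, stood at 0.192, 0.759, 30.3 and 71.6 FPKM in stages 1 to 4. CYP707A2, which degrades the hormone, stood at 21.8 and 44.9 FPKM (1.01), at the limit. NCED6, an enzyme of its synthesis known from endosperm, was lower than its 47.1 FPKM of stage 3 by a difference of -1.55. Of 9 gibberellin genes 2 were higher, the peptide gene GASA3, from 142 to 1165 FPKM, and the synthesis gene GA20OX2, from 6.44 to 15.6 FPKM.

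**Figure D3:**
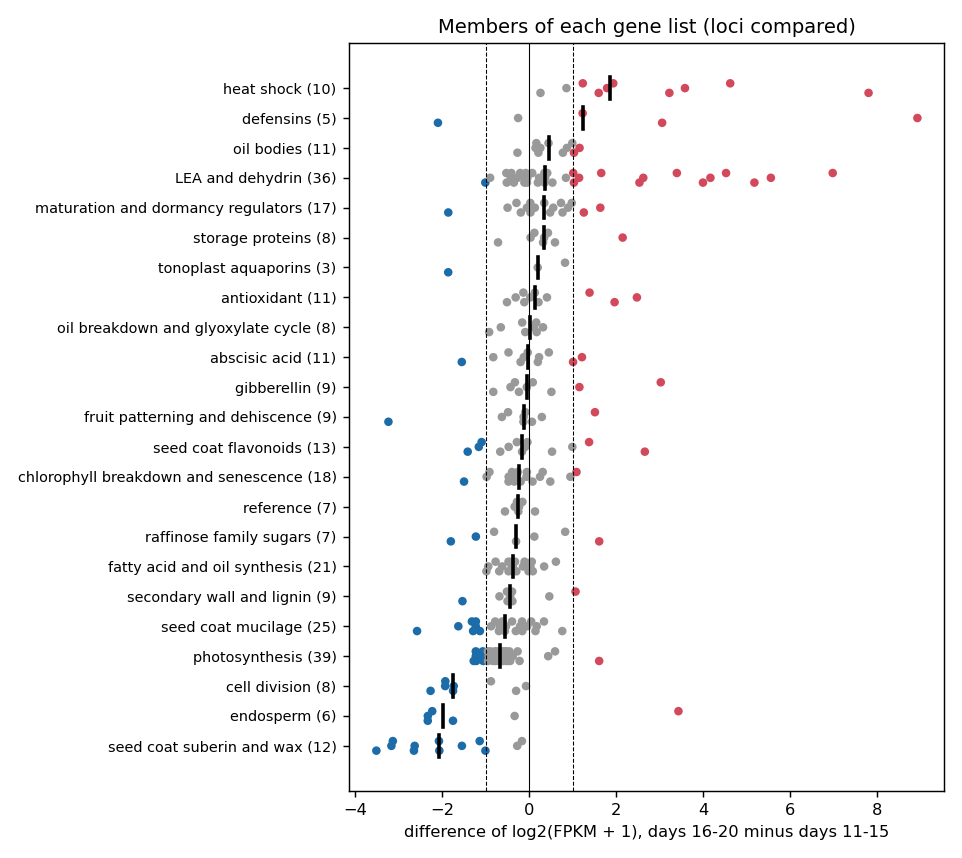
Difference of log2(FPKM + 1), days 16 to 20 minus days 11 to 15, for each compared member of each list (number in brackets), 1 point per locus, with black bars for list medians and dashed lines at the 2-fold limit. Heat shock has the highest median, 1.86, and seed coat suberin and wax the lowest, -2.07, against -0.04 over all loci.

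Suberin genes of the seed coat were the list with the lowest median, -2.07. Suberin is a polyester of long-chain fatty acids, alcohols and ferulate that seals the inner seed coat. Of 12 compared loci 10 were lower and none higher, with 6.22% of all compared loci called lower. In these bulk libraries fewer cells of a type and less RNA per cell cannot be told apart. The transporter gene ABCG6, whose protein exports suberin precursors, stood at 3.10, 2.28, 35.7 and 2.22 FPKM in stages 1 to 4, a difference of -3.51 between the last libraries. The regulators MYB9 and MYB107 stood at 0.485, 3.36, 57.8 and 5.55 FPKM and at 1.12, 3.97, 57.2 and 12.9 FPKM. Stage 3 thus held a sharp maximum of both activators of the pathway.

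The enzymes had the same course. CYP86A1, which oxidises fatty acids at their end, stood at 4.50, 1.64, 27.9 and 2.3 FPKM. CYP86B1, its relative for longer chains, stood at 2.05, 7.77, 159 and 24.8 FPKM. ASFT, which joins ferulate to the polymer, stood at 8.13, 24.5, 437 and 68.9 FPKM. In each of the 10 called loci the stage 3 library held the highest of the 4 values. That library is part of both the step before and the step after, so these maxima rest on it alone.

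Further members were lower by less. GPAT5, an acyltransferase of suberin synthesis, was at 27.0 and 5.67 FPKM, the transporter gene ABCG20 at 129 and 43.4 FPKM and the alcohol-forming reductase FAR1 at 62.5 and 27.9 FPKM. FACT, which esterifies caffeate to fatty alcohols, stood at 209 and 104 FPKM (-1.01), at the limit. FAR4, a reductase making shorter alcohols, was at 18.9 and 16.7 FPKM and the elongase KCS20 at 34.6 and 28.5 FPKM, and neither was called.

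**Figure D4:**
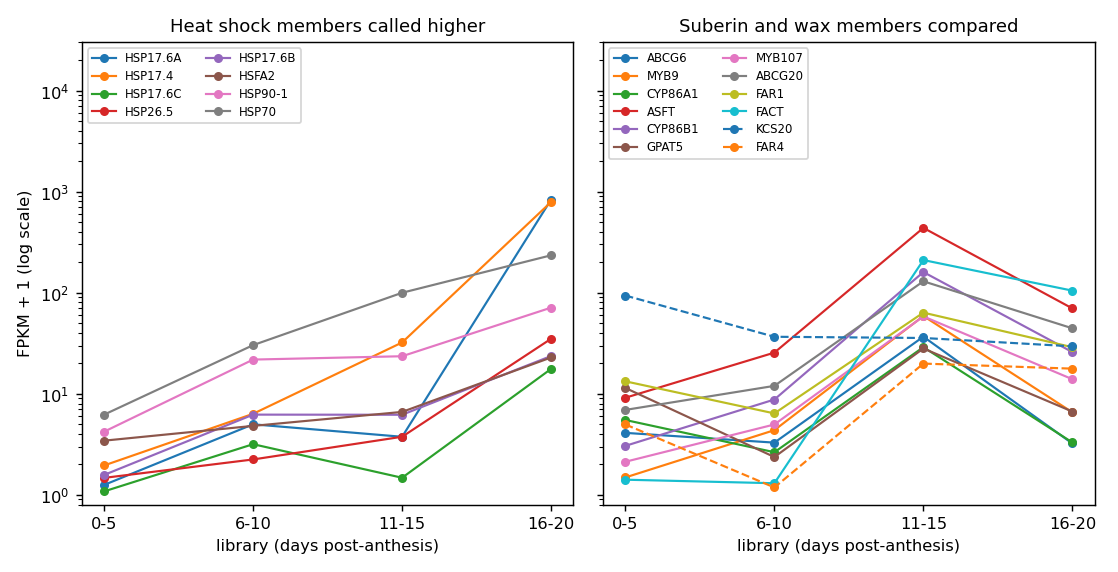
FPKM + 1 (log scale) in the 4 libraries, ordered by days post-anthesis, for the 8 heat shock loci called higher (left) and the 12 compared suberin and wax loci (right), 1 line per locus. The heat shock lines end at their highest value, and the 10 suberin loci called lower have their maximum at days 11 to 15, as ASFT at 437 FPKM.

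The largest decreases outside the lists included small secreted and membrane proteins with that same profile. AT2G48130 and EDA4 are adjacent lipid-transfer-type genes on chromosome 2. AT2G48130 stood at 1.7, 11.6, 245 and 19.5 FPKM and EDA4 at 3.44, 13.3, 281 and 24.3 FPKM. AT3G06390 and AT4G20390 encode membrane proteins of the UPF0497 family and stood at 193 and 8.52 FPKM and at 118 and 9.26 FPKM in stages 3 and 4. PELPK2, a hydroxyproline-rich wall protein gene, was at 79.1 and 5.69 FPKM and the carboxypeptidase-like gene scpl5 at 74.5 and 5.82 FPKM. Others did not peak in stage 3. AT3G01345, an uncharacterised gene with the largest decrease of all single protein-coding loci (-5.75), stood at 18.6, 146, 129 and 1.41 FPKM. HEI10 stood at 2.40, 37.1, 35.3 and 1.33 FPKM and AT2G07732 at 467, 42.8, 27.7 and 1.44 FPKM.

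Some of the most abundant stage 3 transcripts were also lower. AT5G38160 and AT5G38170, neighbouring lipid-transfer-type genes on chromosome 5, stood at 23736 and 5233 FPKM and at 7663 and 1895 FPKM. AT1G62060, uncharacterised, stood at 12128 and 1757 FPKM. Of the 30 compared loci that RefSeq describes as lipid-transfer or 2S albumin superfamily proteins, 13 were lower and 3 higher. The HXXXD acyltransferases, the family of ASFT and FACT, had 5 of 10 lower with none higher. The pectin lyase-like proteins had 6 of 13 lower and 2 higher, and the X8 domain proteins 4 of 8 lower and none higher. These families were picked after their values were seen, and 5.36% of all compared loci were higher and 6.22% lower.

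Mucilage genes of the outer seed coat were mostly little lower. The list had 7 of 25 compared loci lower and none higher, against 6.22% of all compared loci called lower. Its median was -0.56. PMEI6, which inhibits pectin methylesterases, went from 36.6 FPKM at days 6 to 10 to 3.10 FPKM at days 16 to 20 (-2.58 against stage 3), and MUM4, which makes rhamnose for the pectin of mucilage, at 35.0, 113, 98.4 and 31.2 FPKM. The galactomannan gene pair MUCI10 and CSLA02 were lower together, at 49.2 and 20.4 FPKM and at 54.7 and 22.8 FPKM. Their levels in stages 3 and 4 were close to each other. The xylosidase BXL1 was at 600 and 240 FPKM, the peroxidase PRX36 at 30.5 and 11.9 FPKM and the regulator MYB61 at 19.6 and 8.40 FPKM. The seed coat regulators NARS1, at 258 and 267 FPKM, and STK, at 72.2 and 123 FPKM, were not called. With equal FPKM sums 1 mucilage locus was lower and 2 were higher.

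The flavonoid list had 2 of 13 loci higher and 3 lower, against 5.36% and 6.22% of all compared loci. BAN, anthocyanidin reductase, stood at 42.4 and 15.3 FPKM, LDOX at 20.3 and 8.57 FPKM and TT3 at 20.6 and 9.11 FPKM, and each makes precursors of seed coat tannin. FLS1, flavonol synthase, stood at 70.0, 12.4, 6.76 and 48.0 FPKM in stages 1 to 4, and F3H, which acts before the branch, at 122, 125, 26.9 and 71.4 FPKM. Other tannin genes were not called, such as the laccase TT10, which oxidises tannins in the coat, at 388 and 280 FPKM, and the transferase TT19 at 11.0 and 6.56 FPKM.

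Endosperm genes were few and mostly lower. Of 6 compared loci 4 were lower and 1 was higher, against 6.22% and 5.36% of all compared loci. ZOU, a regulator of endosperm breakdown, stood at 20.7 and 3.31 FPKM, and ALE1, a protease whose expression depends on ZOU, at 2.70 FPKM in stage 4 (-2.33). In stages 1 and 2 these 2 genes were also close, at 0.158 and 24.4 FPKM for ZOU and at 0.102 and 18.1 FPKM for ALE1. The sucrose carrier SUC5 was at 37.8 and 7.29 FPKM and the maturation regulator MYB118 at 28.9 and 7.90 FPKM. The imprinted MADS-box gene PHE1 was the exception, at 8.04, 19.3, 0.736 and 17.7 FPKM in stages 1 to 4, whereas its near-identical copy PHE2 stood at 1.75, 9.70, 0.459 and 0.0895 FPKM. Reads of such copies may be assigned to the wrong one, so how the signal divides between PHE1 and PHE2 is uncertain and was not tested. In stage 3 both copies were low, at 0.736 and 0.459 FPKM.

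Genes of dividing cells were mostly under the FPKM limit. Of 36 loci 8 passed the FPKM limit, of which 5 were lower and none higher, and with no limit 24 of 36 were lower, against 5.28% of all loci above 0. KN, the syntaxin of the dividing cell plate, was the most abundant called member, at 79.9 and 15.8 FPKM (-2.27). CYCB1;2, a mitotic cyclin, stood at 10.8 and 2.1 FPKM and CDC20.1, an activator of the anaphase complex, at 17.2 and 4.42 FPKM. AUR1, a mitotic kinase, was below the limit at 9.13 and 2.06 FPKM, and the replication helicase subunit MCM4 at 3.64 and 0.820 FPKM. CDKA;1, the kinase that is present throughout the cycle, stood at 34.1 and 27.5 FPKM and was not called.

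Photosynthesis genes had 36 of 39 differences below 0 and a median of -0.66. Of the 39 loci 7 were called lower and 1 higher, against 6.22% and 5.36% of all compared loci. With equal FPKM sums the list median lay above 0 but still 0.62 below that of all loci. Antenna proteins led, such as LHCB1.2 at 514 and 212 FPKM and LHCB6 at 613 and 272 FPKM, although the locus of LHCB6 is much longer than the gene. Close to LHCB1.2 on chromosome 1, LHCB1.1 stood at 237 and 128 FPKM and was not called. LHCB1.3, also close by, was lower at 4352 and 2150 FPKM, but was listed at 0 in stage 1 and at 8249 FPKM in stage 2. How reads divide among these LHCB1 genes was not tested. The Rubisco small subunit genes split. RBCS1A stood at 2609 and 1928 FPKM, while its tandem relatives on chromosome 5 had higher values in stage 4, RBCS1B at 62.6 and 85.1 FPKM, RBCS3B at 407 and 615 FPKM and RBCS2B at 38.2 and 118 FPKM. Of these RBCS2B was called, and reads of the near-identical copies may be shared among them.

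Chlorophyll breakdown and senescence genes mostly lay within the limit, with 1 of 18 loci higher and 1 lower. Both counts are near the shares over all compared loci, 5.36% higher and 6.22% lower. SGR1, which starts the removal of chlorophyll, stood at 210 and 183 FPKM. NAC092, a senescence regulator, was lower at 54.1 and 18.5 FPKM, and WRKY6 higher at 5.28 and 12.3 FPKM. Fruit patterning and dehiscence genes had 1 of 9 loci higher and 1 lower, both enzymes of cell separation. The polygalacturonase ADPG1, which separates cells where the pod opens and sheds its seeds, stood at 0.913, 8.67, 85.8 and 246 FPKM in stages 1 to 4. QRT2, another polygalacturonase of cell separation, stood at 5.36, 1.53, 29.1 and 2.2 FPKM. The third of this group, ADPG2, was below the limit at 1.21 and 7.92 FPKM. Valve margin regulators, such as IND at 11.6 and 10.5 FPKM, were not called. In the lignin list, with 1 of 9 loci higher and 1 lower, CCoAOMT1, a methyltransferase, was lower at 621 and 214 FPKM, and the laccase LAC4 was higher at 9.94 and 21.9 FPKM.

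Defensin genes, which encode small cysteine-rich antimicrobial peptides, had 3 of 5 compared loci higher and 1 lower. The shares over all compared loci were 5.36% and 6.22%. PDF1.1 and PDF1.4 passed the FPKM limit only through stage 4. PDF1.1 (LCR67 in RefSeq) had the largest increase of all single protein-coding loci, 8.92, and was at 0.546 FPKM in stage 1 and listed at 0 in stage 2. PDF2.1 stood at 3.08, 131, 2634 and 6171 FPKM in stages 1 to 4 and PDF1.4 at 1.27, 1.60, 0.548 and 11.9 FPKM. PDF2.2 (LCR69 in RefSeq), which lies close to PDF2.1 on chromosome 2, was lower, at 1424, 2028, 3856 and 901 FPKM. PDF2.2 thus exceeded PDF2.1 in stage 3 and PDF2.1 exceeded PDF2.2 in stage 4. Both are short genes, for which FPKM depends on the fragment length assumed. Outside the list, LCR73 on chromosome 2 is described in RefSeq as low-molecular-weight cysteine-rich, like PDF1.1. It went the other way, at 2506, 2532, 315 and 5.31 FPKM in stages 1 to 4 (-5.64).

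Further large increases lay outside the lists. AT1G68250, uncharacterised, stood at 0.166, 0.478, 13.3 and 1077 FPKM and the glycine-rich protein gene AT5G35660 at 0.0103, 0.0348, 5.49 and 372 FPKM. AT5G55135 was listed at 0 in stages 1 and 2 and stood at 0.608 and 77.1 FPKM. AT1G14940, of the polyketide cyclase and lipid transport family, stood at 0.0646, 0.0860, 133 and 2274 FPKM. Such late onset was seen in a minority of the higher loci. Of all higher loci 79 (13.8%) were under 1 FPKM in both of the first stages. This compares with 18 (2.70%) of the lower loci and 129 (1.2%) of all compared loci. The median of the higher loci was 6.14 FPKM in stage 1 and 5.64 FPKM in stage 2. Higher loci could pass the FPKM limit through the later library alone, whereas lower loci had to reach it in the earlier one. How far this rule makes the contrast was not tested. XTH18, an enzyme that remodels wall xyloglucan, stood at 1.64, 2.13, 2.55 and 68.7 FPKM. Higher and lower loci alike had few exons, with a median of 3 in both groups against 5 over compared loci, and 21.4% and 22.9% had a single exon against 11.0%.

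Copper enzymes formed another group, listed after their values were seen. Plants short of copper make the microRNAs miR398 and miR408, which in Arabidopsis direct cleavage of messengers for copper proteins, among them superoxide dismutases, their chaperone, plantacyanin and laccases. The mature sequences are shown in DNA letters, with the seed in capitals. With them is shown the best ungapped complementary stretch in the RefSeq transcript of 3 members. Capitals in a stretch mark bases that pair, and a G:U pair was counted as unpaired.
miR398 (MIR398c, chr5:4694778-4694798, + strand): tGTGTTCTcaggtcacccctg
CSD1 (chr1:2827177-2827685, + strand, across a splice): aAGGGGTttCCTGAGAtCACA
miR408 (MIR408, chr2:19319933-19319953, + strand): aTGCACTGcctcttccctggc
ARPN (chr2:827696-827716, - strand): cCaAGGGAAGAGGCAGTGCAT
LAC3 (chr2:12889603-12889623, - strand): aCCAGtGAAGAGGCtGTGCAg
Of the 21 bases 17 paired in CSD1, 19 in ARPN and 17 in LAC3, the best of 9 transcripts searched with each microRNA. For miR398 the best stretch paired 15 bases in CCS1 and COX5B, 14 in BCB and FSD1, and 13 in CSD2 and LAC3. The search allowed no gap and counted G:U pairs as unpaired. It therefore cannot rank CCS1 and CSD2, which were higher, against FSD1, which was lower. G:U pairs could form at 3 of the unpaired bases in CSD2, at 2 in BCB, and at 1 each in CCS1, COX5B, FSD1 and LAC3. For miR408 the next best stretch was that of FSD1, with 13.

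CSD1, cytosolic copper/zinc superoxide dismutase, stood at 906, 240, 139 and 544 FPKM in stages 1 to 4. CSD2, its chloroplast counterpart, stood at 885, 48.4, 50.3 and 284 FPKM. CCS1, the chaperone that loads copper into both, stood at 65.1, 19.5, 19.4 and 69.6 FPKM. All 3 were thus lowest in the middle stages and higher again at its end. FSD1, the iron superoxide dismutase of the chloroplast, had the opposite course, at 39.9, 544, 367 and 48.0 FPKM. ARPN, plantacyanin, stood at 110, 0.819, 7.37 and 114 FPKM, and BCB, a blue copper protein, at 89.7, 14, 32.5 and 414 FPKM.

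Other members did not follow. COX5B, a subunit of cytochrome oxidase, was at 46.4 and 71.3 FPKM, and the copper-response regulator SPL7 at 14.9 and 12.0 FPKM; neither was called. LAC3 was lower, at 18.8 and 1.90 FPKM, as were CCH, a copper chaperone, at 256 and 40.3 FPKM and LAC5 at 198 and 93.0 FPKM. Of 17 compared members 6 were higher and 4 lower, against 5.36% and 6.22% of all compared loci, and the median was -0.08. The copper carrier gene COPT2 (2.41 and 0.266 FPKM) and the hairpin loci MIR398c (0.413 and 0.0311 FPKM) and MIR408 (0.356 and 0.0361 FPKM) were below the FPKM limit. These libraries do not measure mature microRNAs, and a part of them in these values was not tested.

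**Figure D5:**
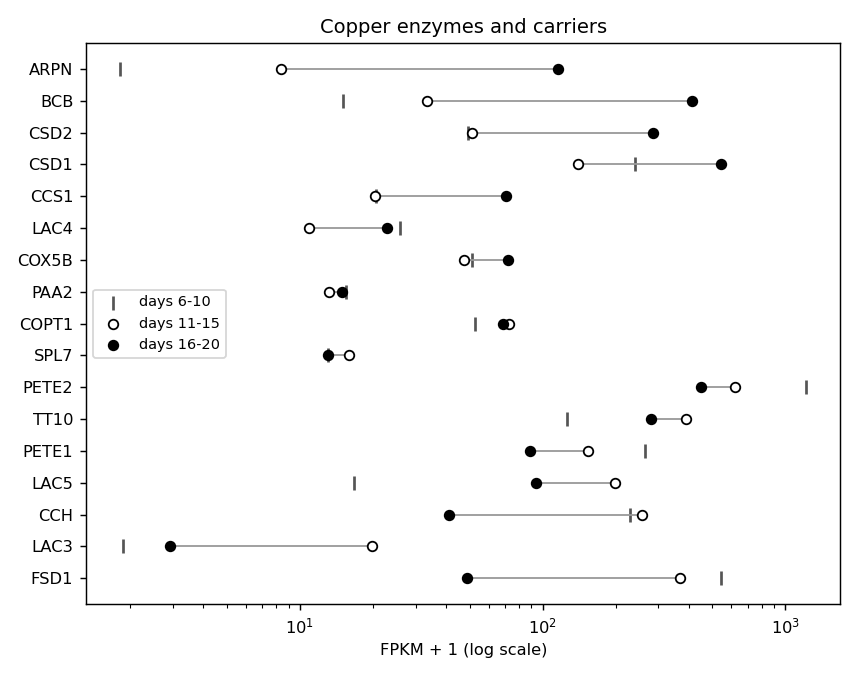
FPKM + 1 (log scale) of the 17 compared loci of copper enzymes and carriers, with ticks for days 6 to 10, open circles for days 11 to 15 and filled circles for days 16 to 20. CSD1, CSD2, CCS1, BCB and ARPN have their filled circle to the right, and FSD1, which stood at 367 and 48.0 FPKM, to the left.

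Genes used as references stayed within the limit but lay mostly on one side. None of 7 was called, 6 had a difference below 0, and their median was -0.25. UBQ10 stood at 2117 and 1440 FPKM (-0.56). Small negative list medians were thus seen in reference genes too. The ribosomal proteins had 3 of 263 loci higher and 1 lower, and the proteasome subunits 0 of 37 in either direction. Over all compared loci 5.36% were called higher and 6.22% lower. That none was called among only 7 reference genes therefore says little.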

How the data were processed

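RNA of whole Col-0 siliques was sequenced in 4 libraries, 1 per age class, grouped here by the developmental stage label. Per the labels' protocols, RNA extracted with Trizol was treated with DNase, purified and made into TruSeq version 2 libraries, which do not mark strand, and read as pairs on a HiSeq instrument. Reads of genes overlapping on opposite strands are thus not separated. Per the submitters' processing notes, TopHat, Cuffdiff and Cufflinks were used on TAIR10 (tool versions not stated in the labels). Deposited values are the authors' FPKM, repeated over the genes of a locus, and 30915 rows gave 29971 loci, of which 818 name several genes. No count test was run.

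Computed here were differences of log2(FPKM + 1), with a fold on this scale understating the change of low genes, counts past 2-fold, and medians of 24 lists of 446 entries, of which 30 had no row and were not analysed here. The members and lists were chosen with earlier results of these data known, and the copper list after its values were seen. Genes were named from the largest differences (15 each way) and the largest FPKM gains or losses (5 each way), without giving all of them. Others came from the lists, first those past 2-fold and then the most abundant. Neighbours, copper genes and genes under the limit were added beside them. Names, promoters and transcripts came from RefSeq on TAIR10.1, which held 28722 of the 29153 single-gene loci, and 28721 of these overlapped the deposited gene. Depth came from whole-fragment steps at 1173 loci, on which 74.5% and 84.1% of the low values fell within 0.2 fragments, at steps chosen on those same values; if the libraries were scaled to each other, it is relative. The counting rule was tested on simulated data with 4-fold changes of abundant loci and little noise. That checks the code, and not calls near the limits or the spread between libraries. Alternatives were other pseudocounts, FPKM minimums, rescalings, a 4-fold limit, single-gene loci and loci listed at 0. Work was done in Python 3.11.15 (pandas 2.3.3, numpy 2.4.6, matplotlib 3.10.9, SciPy 1.17.1).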

Additional observations from a re-analysis of the deposited data

How the results depend on the processing

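No paired analysis was possible because each stage has 1 library, and no library could be left out for the same reason. The counts of all loci were 574 higher and 666 lower, 937 and 1089 with no FPKM minimum, 308 and 402 with a minimum of 30, 151 and 185 at a 4-fold limit, and 3723 and 264 with equal FPKM sums, where 93.4% of called loci were higher against 46.3% as deposited. With equal FPKM sums LEA members were 23 higher and 0 lower, mucilage members 2 higher and 1 lower, and endosperm members 2 higher with a median 1.06 below that of all loci (-1.06). With no minimum, 24 cell division members were lower, 1 suberin member was higher and the endosperm median lay at -0.42 from that of all loci. With a minimum of 30, 5 heat shock members were higher, and the medians relative to all loci were 2.50 for heat shock, 0.62 for flavonoids and 0.58 for defensins. At 4-fold, 4 heat shock members were higher, and 1 mucilage, 1 cell division and 0 LEA members lower. A pseudocount of 5 gave 0 LEA members lower and a cell division median of -1.07 relative to all loci; 0 LEA members were also lower with equal sums over loci of at least 300 bases, with equal sums without AT2G01021 (chosen after seeing the data) and with equal upper quartiles. The ACGTG share of promoters of higher loci was 38.8% with a minimum of 30 and 27.1% with equal sums. The RY share of higher loci was 10.0% with equal sums and 19.3% at 4-fold, and that of lower loci 15.3% with equal sums. The heat shock unit was in 17.1% of loci at least 4-fold higher. Promoter shares were recomputed after the data were seen. Fewer loci or another limit enter in the minimum and 4-fold settings by construction. With equal FPKM sums over all loci the share of AT2G01021 sets the factor, 1.78. The other 4 rescalings had factors from 0.999 to 1.05. The other 222 of 228 alternative list medians stayed within 1.5-fold of the value given, and of 388 alternative values of named genes 59 moved by more, and none of those past 2-fold changed direction.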
